A study of Drosophila melanogaster with 20 samples.

Results

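Juvenile hormone controls metamorphosis and, in the adult fly, egg production and the response to feeding. It is a sesquiterpenoid made in the corpora allata, a gland behind the brain, where the methyltransferase encoded by jhamt acts near the end of the synthesis. Esterases and epoxide hydrolases break the hormone down, and the paralogous receptors Met and gce pass its signal to target genes, of which Kr-h1 is the best known. Genes of this route were chosen by name for their roles: jhamt for synthesis, Jhe, Jhedup, Jheh1, Jheh2 and Jheh3 for breakdown, Met and gce for reception and Kr-h1 for the response. Of the 9 genes, 7 had a row in both expression tables, which together list 12441 genes, and all 7 passed the filter on low values. Jheh1 and Jheh2 had no row in either table and were not analysed here.

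The genes were followed in RNA sequencing of brains of *Drosophila melanogaster*, all of the W1118 strain and 4 to 7 days old, with 5 libraries in each of 4 groups. Males ate a diet of low protein and high carbohydrate (LPHC), with protein to carbohydrate at 0:1 and 180 g/L, or of high protein and low carbohydrate (HPLC), at 1:1 and 180 g/L. Females ate LPHC at 1:2 and 360 g/L or HPLC at 1:1 and 90 g/L. The recipes therefore differed between the sexes, so that sex and recipe cannot be told apart. The LPHC diet of males held no protein while that of females did. Male diets were equally concentrated, whereas in females LPHC was at 360 and HPLC at 90 g/L. If g/L counts protein and carbohydrate together, female LPHC held more protein per litre than female HPLC, the reverse of males. The labels do not give separate cultures, animals or pools for the replicates, so p-values measure only the spread between these libraries.

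Libraries held 13901684 to 35077559 reads. Values are gene counts divided by a size factor for each library (normalised values), and the male and female tables were scaled separately. A change is the LPHC mean minus the HPLC mean of log2(value + 1), a scale that understates the change of low genes, and a gene passed when its adjusted p was under 0.05 in limma over all genes tested. Diet moved much of the transcriptome: 57.2% of the 10115 genes tested passed in males (27.6% higher, 29.6% lower) and 31.5% of 9932 in females (16.7% higher, 14.8% lower). Scaling libraries to the same total moved the median change of all genes by 0.25 in males and 0.16 in females. The share of calls that were higher was then 75.1% in place of 48.3% in males and 81.4% in place of 53.0% in females. Neuronal RNA was present in every library, since the neuronal gene elav had a normalised value of 1005 to 3738. This does not tell brain from other tissue of the head. Genes of other tissues were present too: photoreceptor markers took 3.06% to 9.84% of reads over both sexes, and yolk protein genes 6.75% to 15.1% in females.

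In the male brain, 3 of the 7 genes fell on LPHC (jhamt, Kr-h1 and Jheh3) and none rose, against the 29.6% lower and 27.6% higher of all genes tested. None of the 7 was higher in males at an unadjusted p under 0.05 in limma, nor did edgeR or DESeq2 on the recovered reads call one, but scaling to the same total called gce and Met higher. In the female brain jhamt rose, gce fell and 5 did not pass, against 16.7% and 14.8% of all genes. The median change of the 7 genes was -0.68 in males and -0.18 in females, where the medians of all genes were 0.02 and -0.02. HPLC and LPHC libraries did not overlap for 2 of the 7 genes in males (jhamt and Kr-h1) and for 2 in females (jhamt and gce), which compares with 42.7% and 22.1% of all genes tested.

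**Figure D1:**
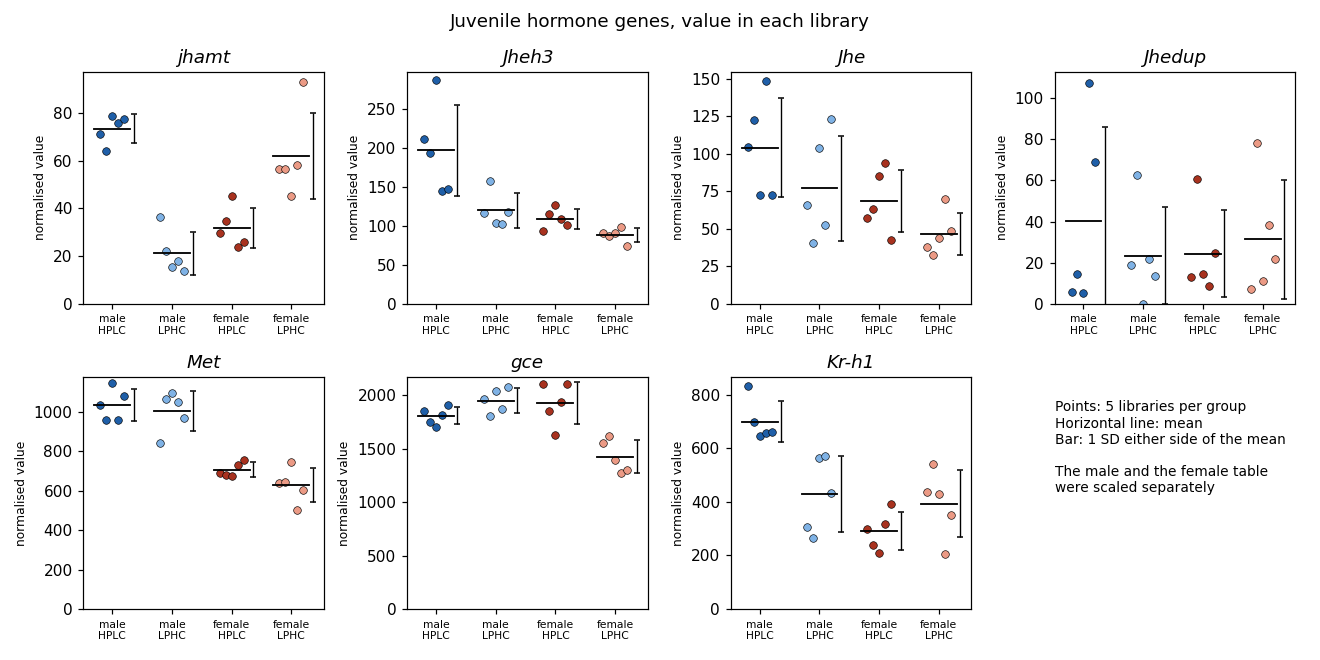
Normalised value (vertical axis, linear, from 0) of the 7 juvenile hormone genes in each library of the 4 groups. Points are libraries, the horizontal line is the mean of 5 and the bar is 1 SD either side, which is cut at 0 for Jhedup; jhamt is high in male HPLC (64.0 to 79.0) and female LPHC (45.4 to 93.3), low in male LPHC and female HPLC.

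jhamt encodes juvenile hormone acid methyltransferase, the enzyme that makes the methyl ester of the hormone or of its precursor, and its transcript is the usual mark of the corpora allata. In male HPLC brains its normalised values were 71.1, 64.0, 79.0, 75.9 and 77.5 in replicates 1 to 5. In male LPHC brains they were 36.5, 22.3, 15.4, 18.1 and 13.7. Every LPHC library lay below every HPLC library, and the highest LPHC value was replicate 1. The mean was 73.5 ± 6.10 (SD, n = 5) on HPLC and 21.2 ± 9.13 on LPHC, 3.47 times lower, a log2 change of -1.83 (SE 0.23, 95% interval -2.31 to -1.34, limma adjusted p = 9.54e-06). These values rest on few reads, 65 to 102 per library on HPLC and 14 to 25 on LPHC.

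In females jhamt moved the other way. Its values in female HPLC brains were 29.6, 34.8, 45.1, 23.7 and 25.9. In female LPHC brains they were 56.6, 56.7, 45.4, 58.2 and 93.3. The groups did not overlap, but the highest HPLC library (45.1) and the lowest LPHC library (45.4) were almost level, and LPHC replicate 5 stood well above the rest of its group. The mean rose from 31.8 ± 8.53 to 62.0 ± 18.2 (SD, n = 5), 1.95 times, a log2 change of 0.94 (SE 0.21, 95% interval 0.48 to 1.39, limma adjusted p = 0.00362). Without LPHC replicate 5 the change was 0.78 and still passed (limma adjusted p = 0.0110). Library counts were 18 to 43 reads on HPLC and 37 to 102 on LPHC.

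The male change minus the female change of jhamt was -2.76 on the log2 scale (SE 0.32, 95% interval -3.43 to -2.09, limma adjusted p = 2.33e-07). A lower call in males together with a higher call in females was found for 657 of 9766 genes tested in both sexes, or 6.73%. In RPM, which scales the reads of every library to 1 common total and does not rest on the separate scaling of the tables, jhamt stood at 3.01 ± 0.857 in female LPHC, 2.82 ± 0.233 in male HPLC, 1.37 ± 0.315 in female HPLC and 0.969 ± 0.430 in male LPHC (SD, n = 5 each). The first and second of these overlapped (2.17 to 4.46 and 2.47 to 3.02), as did the third and the fourth (1.08 to 1.83 and 0.631 to 1.70). The lowest library of the upper pair of groups, at 2.17, was above the highest of the lower pair, at 1.83. RPM is lowered where other genes take many reads. Yolk protein genes took a mean of 13.4% of reads in female HPLC and 7.74% in female LPHC, against at most 0.118% in a male library. The jhamt call held under each of the 20 other settings in males (log2 change -2.04 to -1.53), the 19 that could be run in females (0.78 to 1.09) and the 29 for the difference (-2.97 to -2.33).

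The corpora allata lie outside the brain proper, and in bulk tissue fewer cells of a type and less RNA per cell cannot be told apart. Akh, the adipokinetic hormone gene that marks the corpora cardiaca, the gland joined to the corpora allata, was sequenced at only 2 to 21 reads per library and was below the filter for the test over all genes. In males it stood at 0.494 ± 0.211 RPM on HPLC and 0.261 ± 0.0807 on LPHC (SD, n = 5; exact permutation test, 2-sided, p = 0.0238, adjusted over 18 marker tests 0.0429), and the groups overlapped. In females it stood at 0.434 ± 0.367 and 0.257 ± 0.131 (exact permutation test p = 0.397, adjusted 0.595). The female HPLC mean leaned on replicate 2, at 1.05 RPM from 21 reads, where the other HPLC libraries stood at 0.144 to 0.448. No direction of Akh was therefore read in females. The part of gland tissue carried over with the brain in the change of jhamt was not tested.

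Markers of other tissues also differed with diet. The 12 fat body markers together took 1.04% ± 0.0376 of reads in male HPLC (1.01% to 1.09%) and 0.250% ± 0.050 in male LPHC (0.196% to 0.331%; SD, n = 5; exact permutation test p = 0.00794, the smallest that 5 against 5 allow, adjusted 0.0179). All 9 fat body markers that could be tested fell in males, and Lsp2, a storage protein gene of the fat body, was at 0 to 2.42 in male LPHC. The 3 not tested, Lsp1gamma, Fbp1 and Fbp2, were at or near 0 in males (0 to 15.3). In females the fat body list went from 1.91% ± 0.206 to 1.59% ± 0.132 (exact permutation test p = 0.0317, adjusted 0.0519), with 3 markers higher and 5 lower. The groups overlapped and the share missed the threshold, so no direction was read in females. Glial markers took 0.231% of reads in male HPLC (0.219% to 0.242%) and 0.173% in male LPHC (0.160% to 0.179%), with all 10 lower (exact permutation test adjusted p = 0.0179). Neuronal markers took 0.458% (0.447% to 0.471%) and 0.610% (0.537% to 0.683%), with 6 of 10 higher and none lower (exact permutation test adjusted p = 0.0179). In females the summed shares of both lists overlapped between the diets, glia at 0.240% and 0.242% and neurons at 0.230% and 0.242% of reads (exact permutation test p = 0.738 and 0.508). Of the single female markers, 6 of 10 glial ones were higher and 2 lower, and 1 of 10 neuronal ones was lower. Photoreceptor markers took 3.94% (3.06% to 4.81%) and 5.54% (4.92% to 6.31%) of reads in females on HPLC and LPHC, with 7 of 13 higher (exact permutation test adjusted p = 0.0179). In males they took 7.98% (7.74% to 8.36%) and 8.998% (8.12% to 9.84%), with 2 higher and 2 lower (exact permutation test adjusted p = 0.0317). On normalised values the median log2 change of the male photoreceptor markers was -0.002. Muscle markers took 0.256% (0.231% to 0.288%) and 0.466% (0.417% to 0.498%) in males, with 7 of 8 higher (exact permutation test adjusted p = 0.0179), and 0.203% (0.186% to 0.223%) and 0.201% (0.163% to 0.220%) in females, with 3 of 8 lower (exact permutation test p = 0.921). Of the 7 gut markers 3 had a row, and Jon99Ci was at only 0 to 9.79. The gut share is thus that of the amylase genes Amy-p and Amy-d and is no measure of gut tissue. It was lower on LPHC in both sexes, from 0.127% (0.116% to 0.145%) to 0.0178% (0.0132% to 0.0233%) in males and from 0.173% (0.153% to 0.193%) to 0.101% (0.0863% to 0.114%) in females (exact permutation test adjusted p = 0.0179 in each). The 7 haemocyte markers took 0.0149% to 0.0382% of reads, and the difference between diets missed the threshold (exact permutation test adjusted p = 0.866 in males and 0.604 in females), with 1 higher and 5 lower in males and 2 higher in females. The part of these tissues in the changes of the juvenile hormone genes was not tested.

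**Figure D2:**
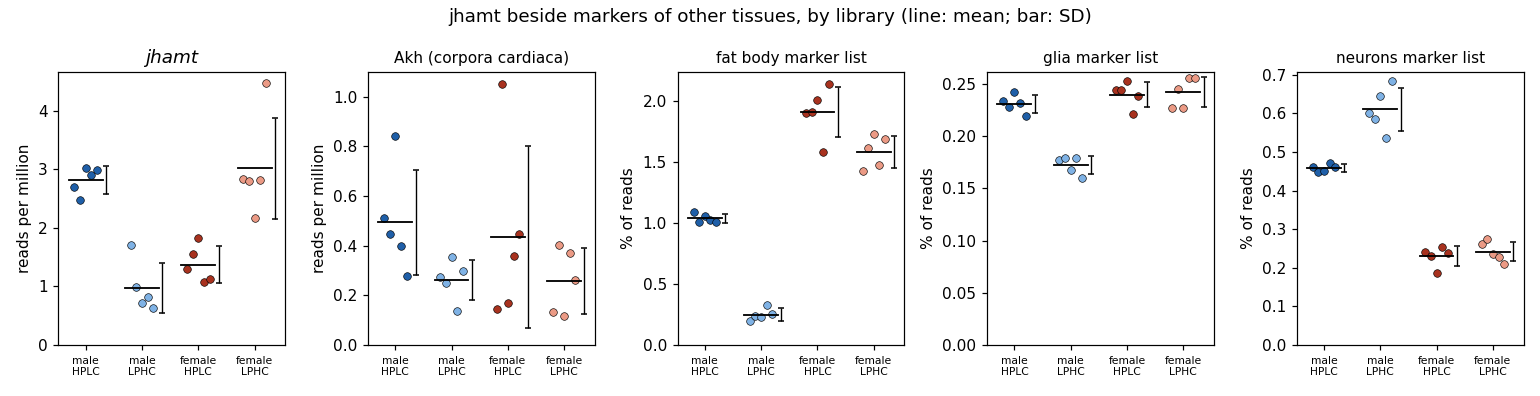
RPM of jhamt and of Akh, and percent of reads of the fat body, glial and neuronal marker lists (vertical axes, linear, from 0), in each library of the 4 groups; lines are means of 5 and bars 1 SD either side. In males jhamt, Akh and the fat body and glial lists have lower means on LPHC and the neuronal list a higher mean, whereas in females jhamt has a higher mean on LPHC and the fat body list a lower one.

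Breakdown of juvenile hormone is shared between esterases, which open the methyl ester, and epoxide hydrolases. Of the 3 breakdown genes measured, only Jheh3 passed, and it did so in males. Jheh3 encodes a juvenile hormone epoxide hydrolase, next to Jheh1 and Jheh2 in the genome. Its values in male HPLC brains were 211, 193, 286, 144 and 147. In male LPHC brains they were 117, 158, 104, 102 and 117. Of the LPHC libraries, 4 of 5 lay below every HPLC library, and replicate 2, at 158, lay within the HPLC range. The mean fell from 196 ± 58.1 to 119 ± 22.4 (SD, n = 5), a log2 change of -0.68 (SE 0.18, 95% interval -1.07 to -0.30, limma adjusted p = 0.00472). The call held with libraries scaled to the same total, where the change was -0.43 (adjusted p = 0.0361).

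In females Jheh3 stood at 93.7, 114.6, 127, 109 and 101 on HPLC. On LPHC it stood at 91.2, 87.3, 90.7, 98.8 and 74.1. Here too 4 of 5 LPHC libraries lay below every HPLC library, but the step was smaller, from 109 ± 12.8 to 88.4 ± 9.07 (SD, n = 5). The log2 change of -0.30 (95% interval -0.55 to -0.05) missed the threshold (limma adjusted p = 0.0693) and passed it without HPLC replicate 1 (-0.35, adjusted p = 0.0467). The difference between the sexes did not pass, at -0.39 on the log2 scale (95% interval -0.84 to 0.07, limma adjusted p = 0.150). In the annotation the antisense RNA gene asRNA:CR46485 overlaps 780 bases of Jheh3 exons, and it extends over Jheh1 and Jheh2. No source used here says whether counting used the strand, and reads of the pair could not be separated. asRNA:CR46485 had at most 14 reads per library, with means of 9.40 on HPLC and 1.51 on LPHC in males and 4.02 and 7.31 in females, and was below the filter.

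Jhe encodes juvenile hormone esterase, and no change of it passed in either sex. Its values in males were 105, 123, 72.4, 149 and 72.7 on HPLC. On LPHC they were 65.7, 40.4, 104, 52.7 and 123. The groups overlapped widely, with means of 104 ± 32.9 and 77.2 ± 35.1 (SD, n = 5) and a log2 change of -0.49 (95% interval -1.11 to 0.13, limma adjusted p = 0.163). In females Jhe stood at 57.5, 62.9, 85.0, 94.1 and 42.7 on HPLC. The LPHC values were 37.9, 32.8, 44.1, 69.7 and 48.5. The means were 68.5 ± 20.9 and 46.6 ± 14.2, a log2 change of -0.54 (95% interval -1.03 to -0.05, limma adjusted p = 0.0909). The call turned on single libraries: Jhe passed in males without LPHC replicate 5 (-0.69, adjusted p = 0.0477), and in females without HPLC replicate 5 (-0.69, adjusted p = 0.0284) or without LPHC replicate 4 (-0.69, adjusted p = 0.0267). The male and female changes of Jhe differed by 0.05 on the log2 scale, with a 95% interval of -0.78 to 0.87.

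Jhedup lies beside Jhe in the genome and is named as its duplicate. It varied so much within groups that no diet change could be read. In males it stood at 5.76, 14.6, 5.48, 107 and 69.2 on HPLC. The LPHC libraries had 19.0, 62.8, 0, 21.8 and 13.7, and replicate 3 on LPHC had no read. The log2 change was -0.72 with an SE of 1.02 (95% interval -2.91 to 1.47, limma adjusted p = 0.569), and it turned to 0.21 without LPHC replicate 3 and shrank to -0.15 without HPLC replicate 4. In females the values were 13.1, 60.7, 14.7, 8.79 and 24.6 on HPLC. On LPHC they were 7.32, 78.3, 11.04, 38.3 and 21.9, a log2 change of 0.21 (95% interval -1.02 to 1.44, limma adjusted p = 0.813). The library highest for Jhedup was also highest for Jhe in male HPLC (replicate 4), whereas in female LPHC replicate 2 had the highest Jhedup value (78.3) and the lowest Jhe value (32.8).

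Met and gce encode paralogous basic helix-loop-helix PAS proteins that bind juvenile hormone, and their diet changes were small beside that of jhamt. Met did not pass in either sex. In males it stood at 1034, 961, 1145, 959 and 1080 on HPLC. On LPHC it stood at 842, 1064, 1096, 1050 and 969, with overlapping groups and means of 1036 and 1004. The log2 change was -0.05 (95% interval -0.21 to 0.12, limma adjusted p = 0.621) and changed sign with libraries scaled to the same total (0.20, adjusted p = 0.0226) or the same upper quartile (0.12). In females Met stood at 692, 679, 678, 733 and 759 on HPLC. On LPHC it stood at 639, 644, 744, 503 and 606, a log2 change of -0.18 (95% interval -0.38 to 0.01, limma adjusted p = 0.149). The interval for the difference between the sexes in Met ran from -0.12 to 0.39 on the log2 scale (limma adjusted p = 0.369).

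gce, named germ cell-expressed, was the one receptor gene that passed, and it did so in females. Its values in female HPLC brains were 2107, 1857, 1627, 1936 and 2106. In female LPHC brains they were 1551, 1623, 1393, 1270 and 1296. No libraries overlapped, although HPLC replicate 3 (1627) and LPHC replicate 2 (1623) were close. The mean fell from 1927 ± 200 to 1426 ± 155 (SD, n = 5), a log2 change of -0.43 (SE 0.09, 95% interval -0.63 to -0.24, limma adjusted p = 0.00199). Scaled to the same total, the change was -0.27 and no longer passed (adjusted p = 0.0556).

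In males gce stood at 1854, 1754, 1704, 1818 and 1911 on HPLC. In the LPHC libraries it stood at 1963, 1805, 2042, 1868 and 2073. The groups overlapped and 3 of 5 LPHC libraries lay above every HPLC library, with means of 1808 ± 81.8 and 1950 ± 114 (SD, n = 5). The log2 change of 0.11 (95% interval -0.01 to 0.22) did not pass (limma adjusted p = 0.100), but passed with libraries scaled to the same total (0.36, adjusted p = 8.31e-05) or upper quartile (0.27, adjusted p = 0.000702) and without LPHC replicate 2 (0.14, adjusted p = 0.0358). The male change minus the female change was 0.54 on the log2 scale (SE 0.11, limma adjusted p = 0.000211), and it ranged from 0.50 to 0.69 over 30 other settings. The antisense RNA genes asRNA:CR44961 and asRNA:CR44429 overlap 2197 and 167 bases of gce exons. Their mean values were at most 1.09 in the first, in males, and 16.4 to 39.2 in the second, far below those of gce.

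Kr-h1 encodes the zinc finger factor through which the hormone represses the adult programme in larvae, and in adults it is read as a sign of juvenile hormone signalling. In male HPLC brains its values were 834, 699, 647, 657 and 661. In male LPHC brains they were 308, 265, 565, 570 and 433. All LPHC libraries lay below all HPLC libraries, with replicates 1 and 2 lowest. The mean fell from 699 ± 77.7 to 428 ± 141 (SD, n = 5), a log2 change of -0.77 (SE 0.19, 95% interval -1.17 to -0.37, limma adjusted p = 0.00290). Scaled to the same total the change was -0.52 (adjusted p = 0.0211). The male library with the highest jhamt on LPHC, replicate 1, was among the lowest for Kr-h1, so the pair did not keep a common order within the group.

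In female HPLC brains Kr-h1 stood at 299, 238, 209, 318 and 392. Female LPHC brains had values of 435, 542, 429, 204 and 352. Of the LPHC libraries, 3 of 5 lay above every HPLC library, and replicate 4 was below all of them. The log2 change of 0.39 (SE 0.22, 95% interval -0.08 to 0.86) did not pass (limma adjusted p = 0.195), and without LPHC replicate 4 it was 0.61 and passed (adjusted p = 0.0113). The male change minus the female change was -1.16 (SE 0.32, 95% interval -1.83 to -0.49, limma adjusted p = 0.00448), and it passed under all 30 other settings (-1.38 to -1.004). In RPM, male HPLC brains were highest for Kr-h1 at 26.8 (24.8 to 31.6), followed by male LPHC at 19.5 (11.8 to 25.98), female LPHC at 19.1 (9.82 to 26.7) and female HPLC at 12.7 (8.45 to 16.97), and each neighbouring pair in this order overlapped. The yolk protein reads of females lower their RPM here too. Kr-h1 shares 4168 bases of exon with CG45075 on the same strand. CG45075 had no row, so its part in the Kr-h1 value could not be measured.

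**Figure D3:**
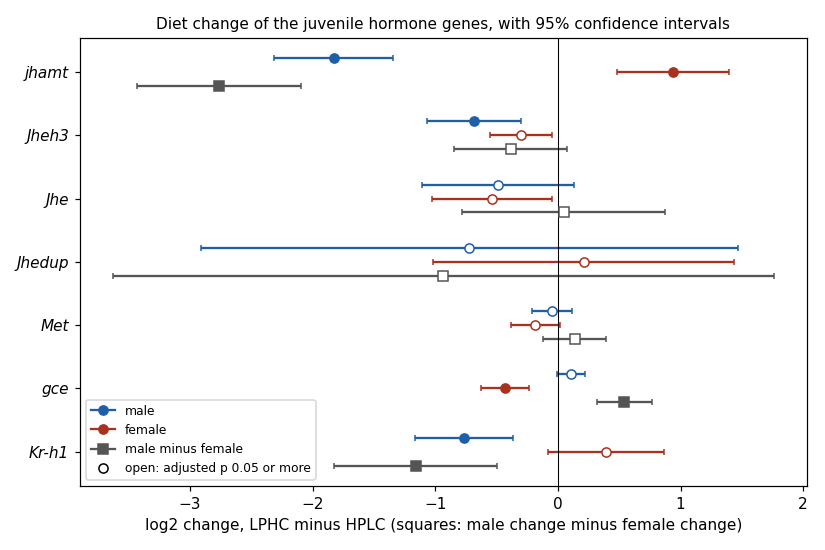
Log2 change, LPHC minus HPLC, of each of the 7 genes in males (blue circles) and females (red circles), and the male change minus the female change (grey squares), with 95% confidence intervals; open symbols have an adjusted p of 0.05 or more. The intervals of the difference exclude 0 for jhamt (-2.76), Kr-h1 (-1.16) and gce (0.54), and the Jhedup intervals are the widest.

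The difference between the sexes thus passed for 3 of the 7 genes, lower in males for jhamt and Kr-h1 and higher for gce, where 52.3% of the 9766 genes tested in both sexes passed (22.7% higher, 29.6% lower). Levels were compared between genes as normalised value per kb of exon (union of exons). In male HPLC the order was gce (311 ± 14.1), Met (204 ± 15.7), Kr-h1 (132 ± 14.6), Jheh3 (125 ± 36.9), jhamt (68.5 ± 5.69), Jhe (49.6 ± 15.7) and Jhedup (23.0 ± 26.02; SD, n = 5), where the median gene stood at 219. Kr-h1 and Jheh3 in this order lay within each other's spread, their means differing by less than either SD. The receptors kept the first and second place in every group. In female LPHC the order below them was Kr-h1 (74.0 ± 23.6), jhamt (57.8 ± 16.97), Jheh3 (56.1 ± 5.75), Jhe (22.2 ± 6.77) and Jhedup (17.9 ± 16.4), so jhamt lay within the spread of both Kr-h1 and Jheh3. In male LPHC jhamt (19.8 ± 8.51 per kb) and Jhedup (13.3 ± 13.4) lay within each other's spread, and the mean of Jhe (36.7 ± 16.7) was above both. In female HPLC jhamt (29.7 ± 7.95) and Jhe (32.6 ± 9.93) lay within each other's spread.

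The rest of the pathway was read in 4 lists: precursor supply (mevalonate and farnesyl steps), receptor partners, hormone-regulated genes and inputs to the gland. In all, 44 listed genes could be tested. In males 13 were higher, 11 lower and 20 did not pass, and in females 7 were higher, 9 lower and 28 did not pass. The lists are described by these counts beside the 57.2% and 31.5% of all genes that passed. By direction these shares were 27.6% higher and 29.6% lower in males, and 16.7% higher and 14.8% lower in females.

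**Figure D4:**
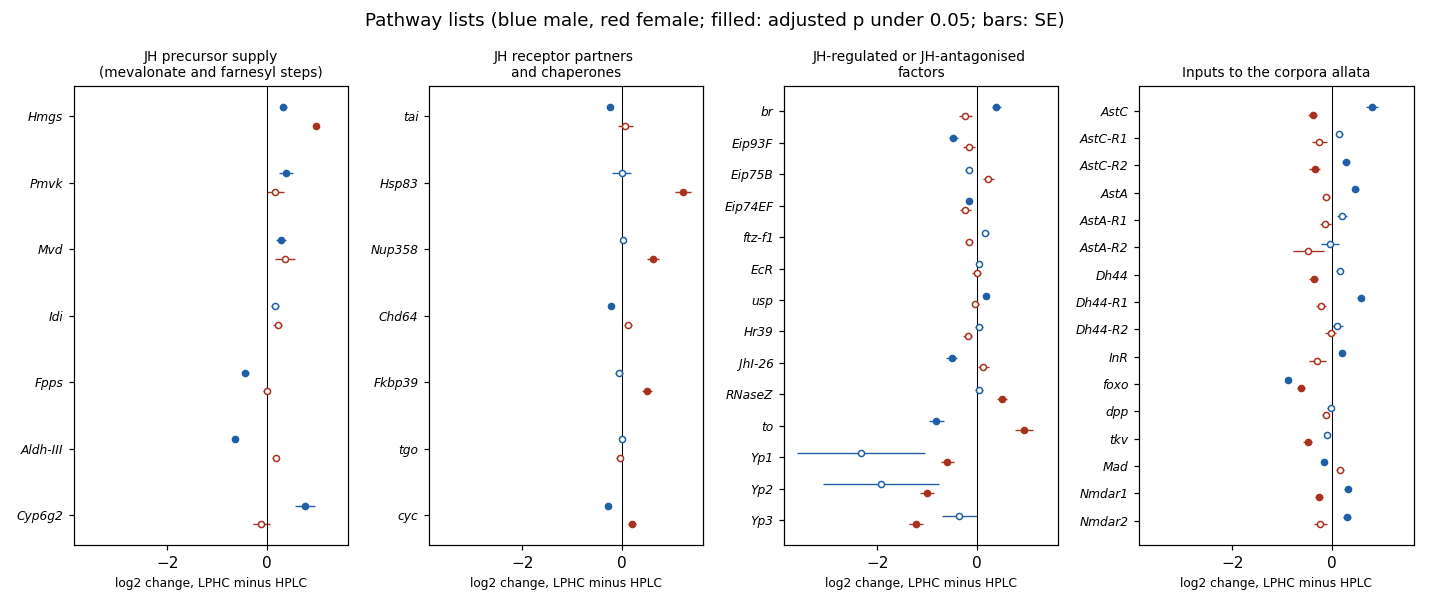
Log2 change, LPHC minus HPLC (horizontal axis), of the 44 tested genes of the 4 pathway lists in males (blue) and females (red); filled points have an adjusted p under 0.05 and bars are the SE. Hmgs and Hsp83 lie far to the right in females, AstC lies on opposite sides of 0 in the sexes, and the male yolk protein genes have wide error bars.

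The 7 precursor supply genes tested are of the mevalonate and farnesyl steps, with Aldh-III and Cyp6g2 placed after farnesyl diphosphate. Of the 7, 4 were higher and 2 lower in males (median change 0.29) and 1 higher and 0 lower in females (median 0.18). No gene of this list was lower in females at an unadjusted p under 0.05, nor was any called lower by edgeR or DESeq2. Hmgs, the HMG-CoA synthase gene, rose in both sexes, by 0.33 in males (from 1756 to 2222, limma adjusted p = 0.00150) and by 0.99 in females (from 1139.9 to 2266, adjusted p = 2.1e-08). Further along, Fpps, the farnesyl diphosphate synthase gene, fell in males (-0.43, adjusted p = 0.000103) and stood at 0.00 in females. Aldh-III, of the aldehyde dehydrogenase step, fell in males (-0.63, adjusted p = 4.3e-07) and had a change of 0.18 in females that did not pass. Cyp6g2, a cytochrome P450 gene active in the corpora allata, rose in males (0.76, adjusted p = 0.00575) from 44.9 ± 12.3 to 76.1 ± 17.2, opposite to jhamt, and had a change of -0.11 in females that did not pass and was 0.05 at the same total. The other male rises in this list were of Pmvk (0.39, adjusted p = 0.0244) and Mvd (0.29, adjusted p = 0.0191), genes of the mevalonate steps.

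Of the 7 receptor partners and chaperones, none was higher and 3 lower in males (median -0.06), and 4 were higher and none lower in females (median 0.20). The counts of 0 were also 0 at an unadjusted p under 0.05 in limma, and with edgeR and DESeq2. The male falls, of the coactivator gene tai (-0.24, limma adjusted p = 0.00875), of Chd64 (-0.22, adjusted p = 0.00325) and of cyc (-0.27, adjusted p = 0.00127), were lost at the same total, where the changes were 0.01, 0.03 and -0.02 and 3 of the list were higher. In females Hsp83, the Hsp90 chaperone gene of the Met complex, rose by 1.23 (adjusted p = 3.45e-05), Nup358, a nuclear pore gene for the import of Met, by 0.62 (adjusted p = 0.00061), and Fkbp39 by 0.51 (adjusted p = 0.000851). cyc, a clock gene of the same protein family as Met, also passed in females (0.20, adjusted p = 0.0455) but not in 7 of 10 fits with a library left out. The male change minus the female change was below 0 and passed for 5 of the 7, where 29.6% of all genes did so. With libraries scaled to the same upper quartile it did so for 4.

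Of the 14 hormone-regulated or hormone-antagonised genes, 2 were higher and 4 lower in males, and 2 higher and 3 lower in females, with a median of -0.16 in each. At the same total these counts were 6 and 2 in males and 4 and 3 in females. takeout (to), a gene for a secreted protein related to insect juvenile hormone binding proteins, went the way of jhamt in both sexes. In males it fell from 45094 to 25830 (-0.81, limma adjusted p = 0.000283) and in females it rose from 9676 to 18490 (0.95, adjusted p = 0.00069), with no overlap of libraries in either. JhI-26, named for its induction by juvenile hormone in cultured cells, fell in males (-0.51, adjusted p = 0.00184; -0.26 at the same total, adjusted p = 0.0516) and stood at 0.13 in females. RNaseZ, listed under its older name JhI-1, rose in females (0.50, adjusted p = 0.00136) and stood at 0.04 in males. Eip93F, whose larval expression Kr-h1 represses, fell in males (-0.47, adjusted p = 0.000591), and br, the Broad factor, rose there (0.39, adjusted p = 0.00153).

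The yolk protein genes Yp1, Yp2 and Yp3, which the hormone and ecdysone drive in fat body and ovary, fell in females (-0.59, -0.999 and -1.23; limma adjusted p at most 0.0017), opposite to jhamt and takeout there. They are made in fat body and ovary rather than in brain, and took 13.4% ± 1.15 of reads in female HPLC and 7.74% ± 0.770 in female LPHC (SD, n = 5). In males none of the 3 passed. Male HPLC replicate 4 held 0.118% of yolk protein reads, where the other 9 male libraries held 0.00666% to 0.00973%.

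The 16 inputs to the corpora allata are neuropeptides, their receptors, and genes of insulin, Dpp and transmitter signalling. They were listed for roles in flies or in other insects. Of the 16, 7 were higher and 2 lower in males (median 0.18). In females none was higher, also at an unadjusted p under 0.05 in limma and with edgeR and DESeq2, and 6 were lower (median -0.26), while at the same total 1 was higher and 2 lower. AstC, the allatostatin C gene, whose peptide inhibits juvenile hormone synthesis in moths, stood against jhamt in both sexes. It rose in males from 2955 ± 380 to 5207 ± 1021 (0.81, limma adjusted p = 5.6e-05). In females it fell from 1741 ± 158 to 1335 ± 155 (-0.39, adjusted p = 0.00387), a call that was lost at the same total (-0.22, adjusted p = 0.0811). The male change minus the female change of AstC was 1.19. Its receptor gene AstC-R2 passed in the same directions (0.29, adjusted p = 0.0062, and -0.35, adjusted p = 0.0245).

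AstA, the allatostatin A gene, rose in males (0.47, limma adjusted p = 0.000112) and stood at -0.12 in females, a change that did not pass and was 0.04 at the same total. Dh44-R1, a receptor gene of the diuretic hormone 44 peptide, rose in males (0.58, adjusted p = 8.03e-06), and Dh44 itself fell in females (-0.37, adjusted p = 0.00526; -0.20 at the same total, adjusted p = 0.0787). foxo, the transcription factor held back by insulin signalling, fell in both sexes (-0.88, adjusted p = 2.21e-09, and -0.61, adjusted p = 3.36e-05). tkv, the Dpp receptor gene, which in the gland promotes jhamt expression, fell in females (-0.49, limma adjusted p = 0.00097). The values of this list are of bulk brain tissue, and levels in the gland itself were not measured. In males tkv had a change of -0.10 that did not pass and was 0.15 at the same total. The male change minus the female change passed above 0 for 9 of the 16 inputs and below 0 for 2, where 22.7% and 29.6% of all genes did so.

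For the 4 genes that passed in at least 1 sex, the genes with the most similar profile were sought by the mean absolute difference of log2 values, centred in each table, over the 20 libraries and 9765 genes. Those nearest to jhamt were CG34454 (0.227), CG2065 (0.232) and glob1 (0.238), where the median of all genes was 0.717. All 3 fell in males (-1.97, -2.12 and -2.07) and rose in females (1.09, 1.23 and 0.49), and their HPLC and LPHC libraries did not overlap in either sex. Their levels were far above that of jhamt: CG34454 stood at 438 and 111 in males and CG2065 at 1159.8 and 267, on HPLC and LPHC. For Kr-h1 the nearest were mgl (0.182), a lipoprotein receptor gene, Myo10A (0.187) and shn (0.193), a zinc finger gene of the Dpp pathway, against a median of 0.443. mgl fell in males (-0.76, limma adjusted p = 4.81e-06) and did not pass in females (0.26). For gce they were flfl (0.0457), Plc21C (0.0465) and app (0.0594), against a median of 0.234, and all 3 fell in females. For Jheh3 they were zda (0.155), CG1640 (0.156) and Alp4 (0.156), against 0.333, and all 3 fell in males. These genes were chosen for their likeness, so their changes are a description.

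**Figure D5:**
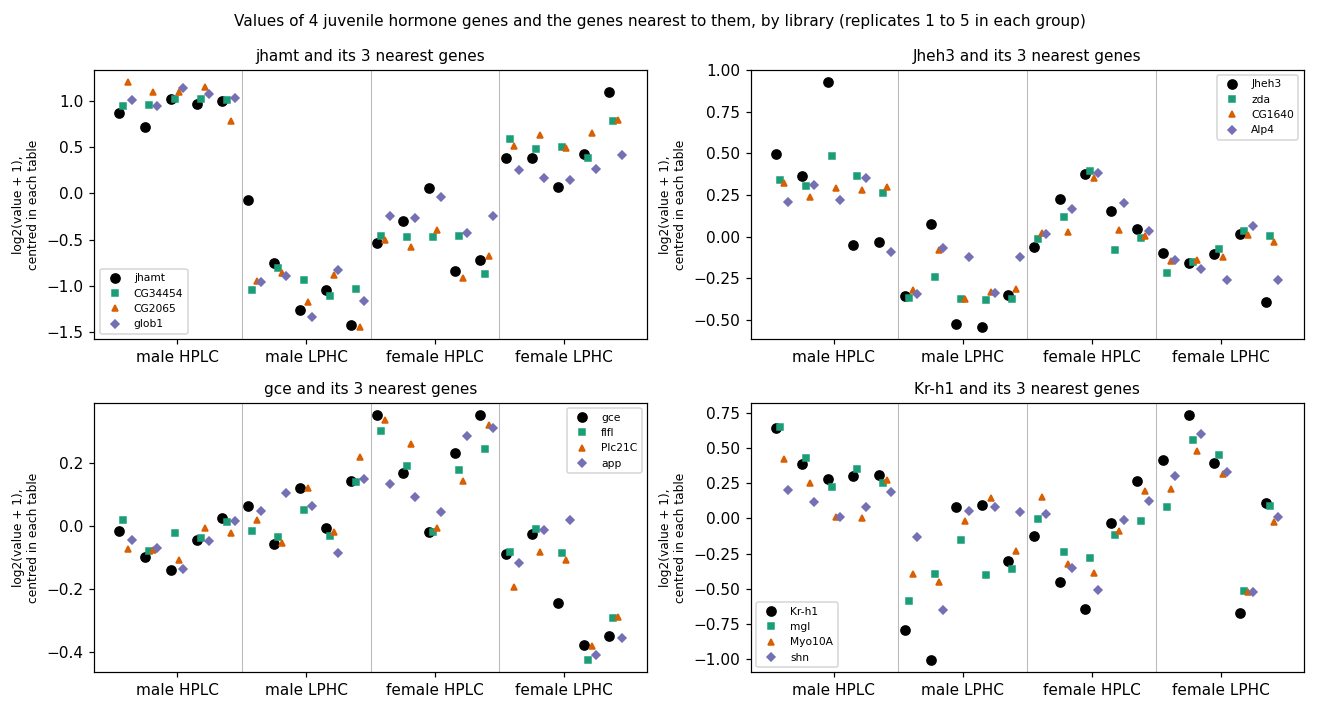
Log2(value + 1), centred on the mean of its own table, of jhamt, Jheh3, gce and Kr-h1 (black circles) and of the 3 genes nearest to each (coloured symbols) in the 20 libraries, replicates 1 to 5 in each group. Around jhamt the points lie high in male HPLC and female LPHC and low in male LPHC and female HPLC, and around Kr-h1 they lie low together in female LPHC replicate 4.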

How the data were processed

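Brain RNA of 20 libraries was extracted with Trizol from flash-frozen tissue and sequenced with Illumina protocols, per the labels. HISAT2 was the aligner, per the submitters' processing notes. No source used here gives the counter, build, annotation or strandedness, and coordinates are left out. The deposited values are a size-factor-normalised signal, with 1 table for each sex that was scaled on its own; normalisation with DESeq2 and removal of long non-coding RNAs are per the labels of those tables, although rows of antisense RNA genes remain in them. Each value is a whole multiple of what 1 read is worth in its library (100% within 0.01), so whole reads could be recovered. The tables hold 12206 and 12015 genes, 0 columns were left unused, and no pair of libraries of a group agreed within sampling noise (smallest chi-square per degree of freedom 7.55 of 40 pairs).

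limma (3.58.1, R 4.3.3) with an intensity trend was fitted to log2(value + 1) of genes reaching a value of 10 in 5 or more libraries, 2-sided, with Benjamini-Hochberg adjustment over all genes; the sexes were compared as the difference of their diet changes. Alternatives were other pseudocounts, filters and scalings, a replicate block, leaving out each library in turn, and edgeR (4.0.16) and DESeq2 (1.42.0) on recovered reads. The fit was checked on simulated reads. Marker shares were compared by exact permutation (SciPy 1.17.1) over 18 tests. Exon lengths and overlaps come from the Ensembl fly annotation. The genes and lists were chosen with earlier results of these data known; 1 listed gene is not reported here and is left out of the counts. Named are the 9 genes, up to 4 of each list with the smallest p in each sex, and the 3 nearest genes of each member that passed; other list genes, the markers, the antisense genes and CG45075 were named after their values were seen. Intervals cover the spread between libraries, and low read counts limit precision for jhamt, Jhedup and Akh.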

Additional observations from a re-analysis of the deposited data

Results flagged for a closer look

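A library stood apart from the others of its group in 4 of 68 groups examined, where chance gives about 1 in 20. That rate concerns the count and does not make any single case chance. They were jhamt in female LPHC replicate 5 (93.3), Jheh3 in male LPHC replicate 2 (158), Kr-h1 in male HPLC replicate 1 (834) and the yolk protein share in male HPLC replicate 4 (0.118% of reads). This yolk protein share lay far above those of the other 9 male libraries (0.00666% to 0.00973%).

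The diet change differed between the sexes by the test of the difference itself for 32 of the 44 named genes. Beyond the juvenile hormone genes, these were chosen for a small p or for likeness in profile. Their count is therefore not comparable with the 52.3% of all genes. Before that choice, 1 was higher and 2 lower of the 7 juvenile hormone genes. Of all 44 list genes tested, 13 were higher and 14 lower. Each value is the male change minus the female change on the log2 scale. Among the juvenile hormone genes it was -2.76 for jhamt, -1.16 for Kr-h1 and 0.54 for gce. In precursor supply it was -0.81 for Aldh-III, -0.43 for Fpps, -0.66 for Hmgs and 0.87 for Cyp6g2. Among receptor partners it was -0.47 for cyc, -0.34 for Chd64, -0.57 for Fkbp39, -1.23 for Hsp83 and -0.60 for Nup358. Among hormone-regulated genes it was -1.76 for takeout, 0.63 for br, -0.64 for JhI-26 and -0.46 for RNaseZ. Among inputs to the gland it was -0.26 for foxo, 0.80 for Dh44-R1, 1.19 for AstC, 0.59 for AstA, 0.38 for tkv and 0.52 for Dh44. Among the genes nearest in profile it was -3.06 for CG34454, -3.35 for CG2065, -2.57 for glob1, -0.54 for zda, -0.39 for CG1640, 0.40 for flfl, 0.54 for Plc21C, 0.46 for app, -1.02 for mgl and -0.56 for Myo10A. Sex and diet recipe cannot be told apart in any of these.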

How the results depend on the processing

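Of 3071 single-gene values under another setting, 2916 kept their direction and side of the threshold, 56 newly passed, 43 no longer passed and 56 changed sign. Scaling moved counts most. At the same library total, the genes called higher in males went from 0 to 2 of the juvenile hormone genes, from 13 to 27 of the lists and from 2794 to 5611 of all genes (upper quartile: 1, 24 and 4739), and those lower from 11 to 5 of the lists (upper quartile: 6) and from 2990 to 1860 of all genes. In females the same total moved list genes higher from 7 to 13, all genes higher from 1662 to 3195, juvenile hormone genes lower from 1 to 0, list genes lower from 9 to 5 and all genes lower from 1471 to 729. A filter of 50 left jhamt untested in females, so that juvenile hormone genes higher there went from 1 to 0 and those lower in the difference from 2 to 1. With the upper quartile Met newly passed in the difference, which took those higher from 1 to 2. For the other moved counts the cause was not tested.

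Changes that turned in sign were, at the same total in males, Met (0.20), Chd64 (0.034), tai (0.014), Fkbp39 (0.19), Hsp83 (0.24), tkv (0.15) and shn (0.011), and at the same upper quartile Met (0.12), Fkbp39 (0.11), Hsp83 (0.16) and tkv (0.065). Hsp83 in males was also positive by edgeR (0.057) and DESeq2 (0.037). In females at the same total they were Cyp6g2 (0.0496), Eip93F (0.0018), AstA (0.042) and zda (0.00080). In the difference Mvd turned in sign too (0.017, 0.074 and, by DESeq2, 0.0055), as did Idi (0.036 and 0.094) and Alp4 (0.0083 and 0.067), each at the same total and upper quartile.

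With 1 library left out, juvenile hormone genes higher numbered 0 to 1 in males and 1 to 2 in females. Those lower numbered 3 to 4 in males and 1 to 2 in females. List genes numbered 12 to 16 higher and 9 to 11 lower in males, and 6 to 8 higher and 7 to 13 lower in females. Changes that turned in sign ranged in males from -1.28 to 0.21 for Jhedup, -0.081 to 0.015 for Met, -0.097 to 0.0049 for Fkbp39, -0.13 to 0.12 for Hsp83, -0.035 to 0.048 for Nup358, -0.48 to 0.091 for Yp3 and -0.020 to 0.072 for RNaseZ. In females they ranged from -0.23 to 0.61 for Jhedup, -0.026 to 0.031 for Fpps and -0.018 to 0.20 for tai. In the difference they ranged from -0.15 to 0.25 for Jhe, -1.496 to 0.0023 for Jhedup, -0.196 to 0.028 for Mvd and -1.40 to 0.59 for Yp2.

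Deviations of same-numbered libraries from their group means had correlations of -0.129 to 0.0028 in males and -0.228 to 0.0478 in females. Differently numbered libraries were not compared, so whether replicate numbers paired the samples is not settled. With the replicate block, juvenile hormone genes again numbered 0 higher and 3 lower in males and 1 and 1 in females, all genes 2520 and 2834 in males and 1410 and 1199 in females, and cyc in females lost its call (adjusted p = 0.0978).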
